A study of Drosophila melanogaster with 12 samples.

Results

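The comparison of Drosophila S2 cells given double-stranded RNA (dsRNA) against Atx2 with control S2 cells was described across all genes with enough counts to test, 9058 of the 17737 genes in each table. It used 6 of the 12 libraries of the series, 3 per group, chosen by their titles and their treatment labels. S2 cells are a male line of embryonic origin with properties of hemocytes, the macrophage-like blood cells of flies. They were grown in Xpress medium, and poly(A) RNA of the cell lysate was made into TruSeq mRNA libraries. Control cells carry the treatment label none, and no control dsRNA is named, so effects of lowering Atx2 and of receiving dsRNA cannot be told apart. The other 6 libraries are larval brains, which enter below as a level reference and in 1 comparison of chromosomes. Nothing in the labels says that the replicates were separate cultures or were grown side by side, so the p-values below rest on differences among libraries that may be only technical.

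Ataxin-2, the product of Atx2, is a cytoplasmic RNA-binding protein that acts with poly(A)-binding protein on the translation and stability of messenger RNAs and in RNA granules. Hemocytes build basement membrane, take up debris through scavenger receptors and release clotting and antimicrobial proteins. As male cells, S2 cells also run dosage compensation, in which the MSL complex and its roX RNAs raise transcription from the male X chromosome.

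Atx2 (FBgn0041188, 3R, 15408423 to 15417277, plus strand, positions in the BDGP6.54 annotation) stood at 242, 218 and 226 CPM in the control libraries and at 149, 55.3 and 166 CPM in the dsRNA libraries. CPM are counts relative to the library total, scaled by the trimmed mean of M-values (TMM). Every dsRNA library lay below every control library, but the log2 fold change of -0.89 ± 0.35 (SE) did not pass the threshold of an adjusted p under 0.05 (edgeR quasi-likelihood test, adjusted p = 0.0613). With DESeq2 it passed (adjusted p = 0.014). The fitted value rested largely on dsRNA library 2, without which it was -0.55.

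Library totals were 25994555 to 29020252 counts in control cells and 14944637 to 20400465 with dsRNA. The smaller dsRNA libraries nevertheless held counts for more genes, 11896 to 12615 against 11138 to 11627. After all libraries were thinned to 14944637 counts, the dsRNA libraries still had counts for 11833 to 12291 genes and the control libraries for 10615 to 10931. The root mean square log2 distance between libraries was 0.272 to 0.443 within control, 0.316 to 0.582 within dsRNA and 1.04 to 1.16 between the groups. Among 6269 genes of at least 10 CPM, dsRNA library 1 was at least 2-fold above both others of its group for 114 and at least 2-fold below both for 86, more than any other library.

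Most tested transcripts differed between the groups, so the share of a list called in each direction stands below beside its count, to be read against the shares over all genes. Of the 9058 genes tested, 4986 (55.0%) were called: 2580 (28.5%) stood higher with dsRNA and 2406 (26.6%) lower. The change was at least 2-fold for 2626 genes (29.0%), of which 1401 (15.5%) were higher and 1225 (13.5%) lower. Control and dsRNA libraries did not overlap for 5777 genes (63.8%), 3015 of them (33.3%) higher and 2762 (30.5%) lower. The median log2 fold change of all genes was 0.04. That centre depends on the scaling. Library totals alone moved it up by 0.49 and gave 4906 genes higher and 1324 lower, and upper quartile scaling moved it up by 0.18 and gave 3406 and 1870. Changes below are relative to the TMM centre, and a list whose median crosses 0 under another scaling is named with that value.

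The direction of change followed the level of the gene. When the genes were divided by mean level into 10 classes of equal size, the lowest class ran from 0.207 to 0.912 CPM. In it 46.7% were called higher and 8.39% lower, and the median log2 fold change was 1.16. In the highest class, 214 CPM and above, 9.71% were called higher and 57.9% lower, with a median of -0.54. The shares crossed between class 6, with 28.8% higher and 23.6% lower, and class 7, with 23.0% higher and 32.2% lower. The gene lists below were not set against genes of like level, so the part of level in their shares was not tested. A gene whose mean passes the filter only through its high group had to differ, so the shares of the lowest class partly follow from the filter. Genes with a mean under 1 CPM held 0.0658 ± 0.00847% (SD, n = 3) of the counts in control and 0.165 ± 0.0203% with dsRNA. Pseudogenes were called higher for 29 of 57 tested (50.9%), against 28.5% of all genes, but their median level was only 2.31 CPM. In the class of 0.912 to 2.58 CPM, 43.3% of all genes were called higher. Pseudogene reads can also come from near-identical parent genes.

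**Figure D1:**
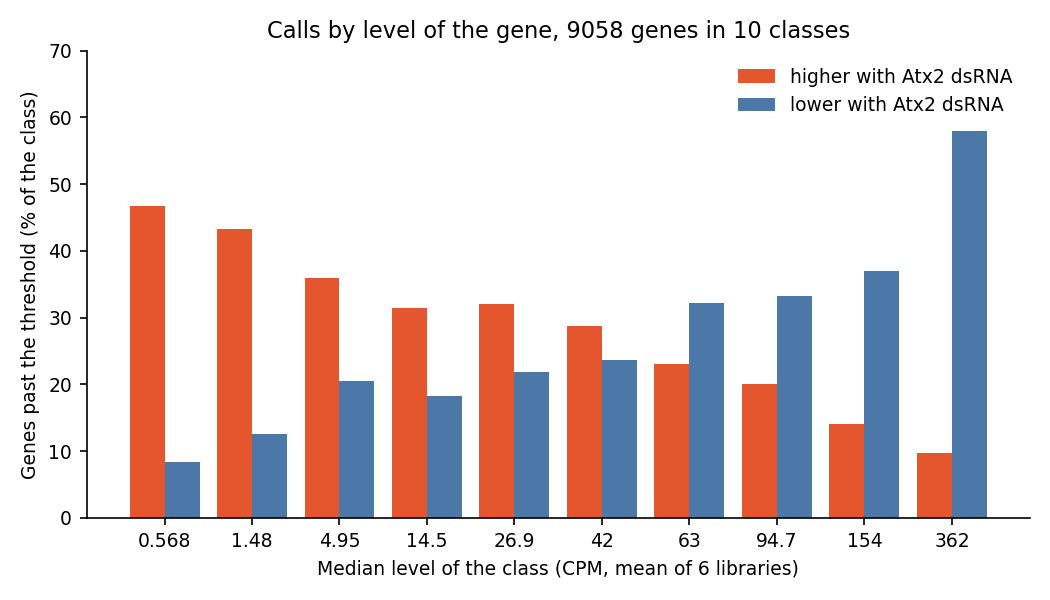
Share of genes (y axis, % of each class) called higher (orange) or lower (blue) with Atx2 dsRNA, in 10 classes of the 9058 genes ordered by mean level (x axis, median CPM of the class). The higher bars fall from 46.7% in the lowest class to 9.71% in the highest, while the lower bars climb from 8.39% to 57.9%.

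Arc1 had the largest gain in CPM and became the most abundant transcript in 2 of the 3 dsRNA libraries. Arc1 (FBgn0033926, 2R, 14357927 to 14360297, minus strand) encodes a protein descended from a retrotransposon Gag that forms capsids carrying its own messenger RNA between cells. It stood at 311, 342 and 312 CPM in control and at 5602, 12501 and 21364 CPM with dsRNA, a log2 fold change of 5.35 ± 0.47 (adjusted p = 7.98e-05). The groups lay far apart, and the dsRNA libraries also spread widely among themselves. Its share of all counts went from 0.0272 ± 0.00188% to 1.56 ± 0.926%. In control libraries it ranked 677, 593 and 664 among all genes, and with dsRNA 6, 1 and 1. The neighbouring copy Arc2 held 0.00359 ± 0.000319% of the counts in control and 0.0424 ± 0.0138% with dsRNA. Reads of such related copies may be shared in ways the counts do not show.

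Translation, matrix and lipid genes had the largest losses in CPM. eEF1alpha1 (FBgn0284245, 2R, 11891135 to 11895762), the elongation factor that brings aminoacyl-tRNA to the ribosome, was the most abundant transcript of every control library. It fell from 25304, 25374 and 25875 CPM to 9217, 8435 and 8607 CPM (log2 -1.54 ± 0.07, adjusted p = 8.25e-06). RpL5 (2L, 22532279 to 22536884), a large-subunit ribosomal protein that binds 5S rRNA, was second in control. It fell from 15685, 14742 and 15510 CPM to 6335, 5836 and 5942 CPM (log2 -1.34 ± 0.08). Both genes were tightly held within each group and their groups were far from overlapping. The other 8 of the 10 largest losses in CPM were LanA, RpL3, RpS29, Rack1, vkg, RpS4, FASN1 and sta. The 92 ribosomal protein genes, found by symbol, together held 22.1 ± 0.506% of counts in control and 16.6 ± 0.539% with dsRNA. The 100 most counted genes of each library held 32.1 ± 0.391% and 26.4 ± 0.683%.

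The other large gains in CPM were spread over genes of different roles. lncRNA:CR43264 (FBgn0262945, X, 5831898 to 5832215, minus strand), a short non-coding transcript, rose from 38.7, 22.2 and 22.9 CPM to 1070, 1065 and 1046 CPM (log2 5.24 ± 0.25, adjusted p = 8.25e-06). Its dsRNA libraries lay close together, unlike those of Arc1. AOX1 (3R, 15532137 to 15537292), an aldehyde oxidase, rose from 68.4, 49 and 49.3 CPM to 392, 586 and 830 CPM (log2 3.44 ± 0.29). Xrp1, a bZIP transcription factor of the damage and cell competition responses, rose from 1230, 893 and 1009 CPM to 1712, 1743 and 1842 CPM (log2 0.76 ± 0.13, adjusted p = 0.00183). Cul2, a cullin scaffold of ubiquitin ligases, rose from 288 ± 31.6 to 886 ± 227 CPM (log2 1.62 ± 0.20). CG7255 rose from 232 ± 5.41 to 861 ± 72.4 CPM and CG15784 from 300 ± 116 to 970 ± 209 CPM. The corepressor gene spen stood at 1535 CPM in dsRNA library 1 and at 755 and 772 CPM in the others, against 474 to 523 CPM in control (log2 1.02 ± 0.27, adjusted p = 0.0127). Hsc70-4, the constitutive cytosolic Hsp70 chaperone, rose by only 0.24 ± 0.08 on the log2 scale. Its call (adjusted p = 0.0317) was lost when any single library other than dsRNA replicate 1 was left out (adjusted p = 0.0783 to 0.203).

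**Figure D2:**
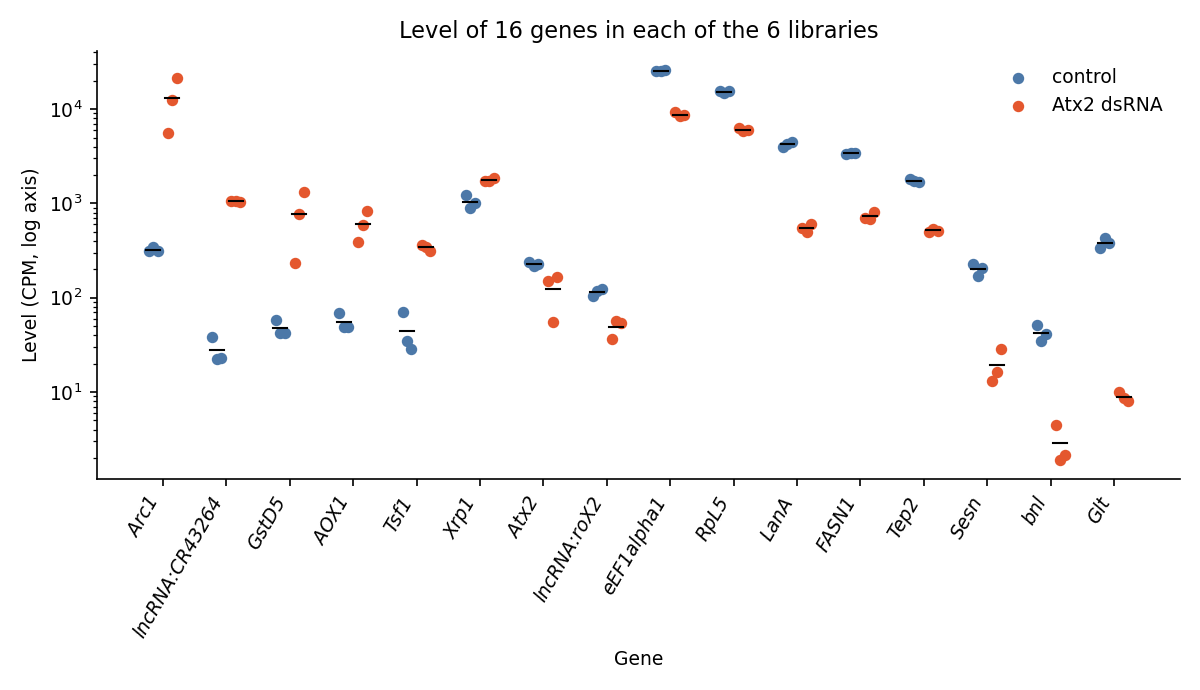
Level (y axis, CPM, log axis) of 16 genes in each of the 3 control (blue) and 3 Atx2 dsRNA (orange) libraries, with bars at the group means. Arc1 moves from 311 to 342 CPM up to 5602 to 21364 CPM, and eEF1alpha1 falls from at least 25304 CPM to 8435 to 9217 CPM. Atx2 lies at 218 to 242 and 55.3 to 166 CPM. Its gap between the nearest libraries of the groups, 218 and 166 CPM, is the smallest of the 16 genes on the log axis.

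Transcripts of the X chromosome were higher relative to those of the autosomes in every dsRNA library. This comparison was added after the data had been seen. Of 1587 X genes tested, 44.0% were called higher and 17.5% lower, with a median log2 fold change of 0.36. On the 4 large autosome arms 25.1% of 7304 genes were called higher and 28.7% lower, with a median of -0.01. Among genes of at least 10 CPM the median was 0.21 for 1105 X genes and lay between -0.15 (2R) and -0.09 (3L and 3R) for the 4 autosome arms. The small chromosome 4 had a median of -0.03 over 48 genes.

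Within single libraries the same order held. The median over X genes minus the median over autosome genes, each set against the mean of the 3 controls, was 0.024, -0.026 and 0.000 in the control libraries. It was 0.446, 0.272 and 0.212 in the dsRNA libraries, with dsRNA library 1 highest. The groups did not overlap, and their means differed by 0.311 on the log2 scale, a ratio of 1.24. An exact two-sided permutation test of the 6 library values gave p = 0.1, the smallest that 3 libraries against 3 allow. Setting the values against the control mean draws the control libraries together, and the comparison was chosen after the data were seen. This p-value is therefore no independent support for the difference. X genes together held 13.5 ± 0.0136% of all counts in control and 16.7 ± 0.717% with dsRNA.

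The difference was spread along the chromosome and over levels of expression. All 12 bins of 2 Mb along the X had medians of 0.09 to 0.48. The 49 bins of the autosome arms ran from -0.25 to 0.14, and 11 of the 12 X bins lay above that range. Among genes of at least 10 CPM split by mean level, the X median exceeded the autosome median by 0.38 between 10 and 30 CPM, by 0.27 between 30 and 100 CPM and by 0.39 above 100 CPM. In the last band 28.2% of 348 X genes were called higher against 9.66% of 1729 autosome genes, and 30.2% against 49.6% were called lower. Taken from the fitted fold changes instead of the library medians, the difference was 0.320. It was 0.315 to 0.340 under the other scalings and filters tried, and leaving out 1 library at a time gave 0.247 to 0.372. For the larval brain libraries a similar value was taken over 1254 X and 5958 autosome genes of at least 10 CPM in brain. Its CPM came from library totals without TMM. It was -0.010, -0.036 and -0.083 with Atx2 shRNA and -0.005, 0.010 and 0.000 in control. The difference between the systems, whose gene sets are not the same, was not tested.

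**Figure D3:**
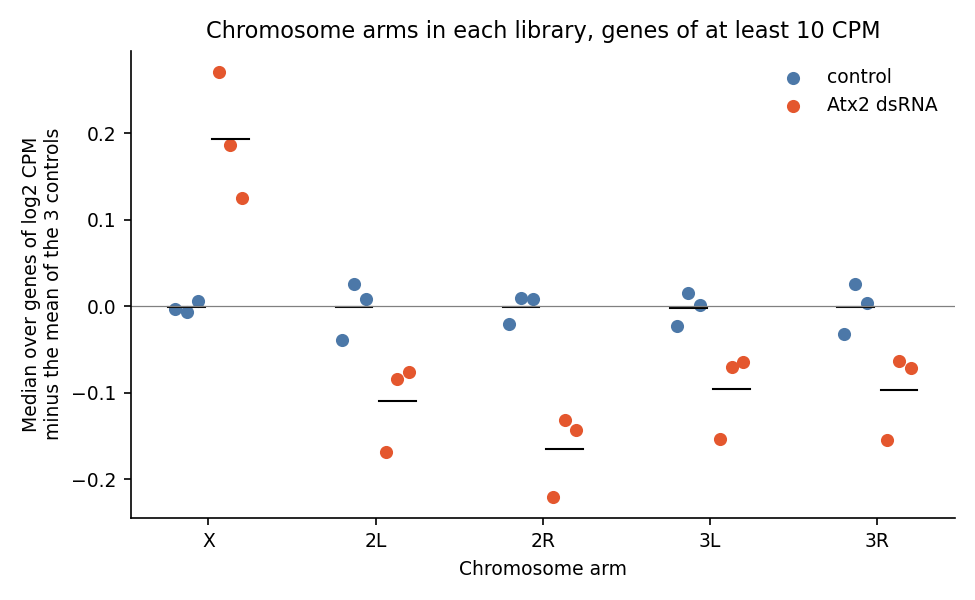
Median over genes of at least 10 CPM of the log2 level minus the mean of the 3 controls (y axis), by chromosome arm (x axis), for each control (blue) and Atx2 dsRNA (orange) library, with bars at the group means. The dsRNA libraries lie at 0.125 to 0.271 on the X and at -0.220 to -0.063 on the 4 autosome arms.

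Genes of the dosage compensation machinery did not move in 1 direction. They were listed after the X values were seen, apart from both roX genes, msl-2, Sxl and tra. lncRNA:roX2 (X, 11579065 to 11580432), the main roX RNA of S2 cells, fell from 105, 118 and 123 CPM to 36.1, 56.2 and 54.5 CPM (log2 -1.24 ± 0.18, adjusted p = 0.000741). lncRNA:roX1 (X, 3857230 to 3862697), its partner, was scarce and rose from 0.453, 0.472 and 1.1 CPM to 1.88, 2.35 and 4.67 CPM (log2 2.12 ± 0.50, adjusted p = 0.00782). Since roX2 was far more abundant, the roX RNAs together were lower in every dsRNA library. Of the protein subunits, msl-2, whose protein is made only in males, had 119 ± 11.5 and 118 ± 3.18 CPM (log2 -0.01 ± 0.11, adjusted p = 0.952), and msl-1, its scaffold, had 93.1 ± 5.98 and 92.3 ± 19.7 CPM. The helicase gene mle rose by 0.47 ± 0.12 (adjusted p = 0.0109) and the chromodomain gene msl-3 by 0.36 ± 0.12 (adjusted p = 0.0318). The acetyltransferase gene mof had a log2 fold change of -0.30 ± 0.11 (adjusted p = 0.0513). Clamp, a zinc finger factor that guides the complex to the X, fell by 0.41 ± 0.10 (adjusted p = 0.0102). Of the sex determination genes, Sxl, on the X, fell by 0.96 ± 0.23 and tra rose by 0.77 ± 0.19. What part any of these has in the X values was not tested.

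The largest increases began from almost nothing. The 12 increases of greatest fold among called genes of at least 5 CPM and without overlap were CCAP-R, Cyp6d2, CG13243, CG15369, CG16713, bero, DptA, CG14932, CG34434, CG7299, CG6675 and Uro. CCAP-R, a neuropeptide receptor gene, had 0, 1 and 1 counts in control and 97, 217 and 138 with dsRNA, a CPM ratio of 241 (95% counting interval 66.4 to 1999, counting error only). Cyp6d2, a cytochrome P450 gene, rose from 0.165, 0 and 0.0459 CPM to 6.01, 17.9 and 16.6 CPM (log2 7.44 ± 0.74, adjusted p = 0.000132; 8.90 without control library 1). Uro, urate oxidase, rose from 0.158 ± 0.0639 to 11.5 ± 7.32 CPM (log2 6.12 ± 0.63, and 5.49 without dsRNA library 3). In some of these genes dsRNA library 1 was the lowest of its group by far. CG7299 stood at 4.09, 37.8 and 117 CPM, and bero, which encodes a membrane-anchored protein of the Ly6 family, at 2.71, 7.34 and 26.5 CPM.

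The 12 largest decreases by the same rule began at control means of 9.18 CPM (CG32206) to 380 CPM (Glt). They were CG34330, fok, Glt, CG10433, CG7737, CG33307, CG9168, CG13559, CG32206, hoe1, Nepl9 and Jhbp1. CG34330 fell from 276, 211 and 284 CPM to 8.51, 1.79 and 0.627 CPM (log2 -6.09 ± 0.74, adjusted p = 0.000342, and -7.66 without dsRNA library 1). CG7737 fell from 118, 92.5 and 115 CPM to 3.63, 2.82 and 3.02 CPM (log2 -5.10 ± 0.17, adjusted p = 4.4e-06). Its 3 dsRNA libraries lay within 1 CPM of each other, while those of CG34330 spread widely. hoe1, a predicted membrane transporter, fell from 194 ± 6.46 to 8.88 ± 4.2 CPM, and Jhbp1, a juvenile hormone binding protein, from 41.9 ± 5.81 to 2 ± 0.658 CPM. Every gene in these lists of 12 kept its call when any single library was left out.

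Under TMM, genes that bring proteins into the secretory pathway were more often lower than higher, against 26.6% lower and 28.5% higher among all genes. Abundant genes were also more often lower: 37% were called lower in the class of 119 to 213 CPM and 57.9% at 214 CPM and above. What part level has in the shares of the secretory lists was not tested. With library totals alone most of these lists held more higher than lower calls, as all genes did. Of 21 tested genes for translocation into the endoplasmic reticulum (ER), 11 fell (52.4%) and 0 rose (0%), with a median log2 fold change of -0.32 (0.17 with library totals alone, which called 6 higher and 2 lower). Sec61alpha, the channel through which nascent proteins enter the ER, fell from 704, 944 and 814 CPM to 454, 506 and 486 CPM (log2 -0.77 ± 0.13, adjusted p = 0.00164). Its groups did not overlap, but with library totals alone its call was lost (log2 -0.28, adjusted p = 0.0935). Of 27 genes for N-glycosylation, which adds sugar chains to secreted proteins, 14 fell (51.9%) and 1 rose (3.7%), with a median of -0.35 (0.13 with library totals alone, which called 9 higher and 2 lower). Gfat2, the entry enzyme of the hexosamine pathway, fell from 426 ± 29.1 to 169 ± 21.5 CPM (log2 -1.33 ± 0.13). Among 14 ER chaperones and disulfide enzymes 7 fell (50%) and 1 rose (7.14%), with a median of -0.41 (0.07 with library totals alone, which called 1 higher and 1 lower). The gene that rose was Cnx99A, a calnexin that holds unfinished glycoproteins, at 849, 880 and 746 CPM in control and 1394, 1037 and 1190 CPM with dsRNA (log2 0.55 ± 0.13, adjusted p = 0.00921). Its call was lost without control library 3 (adjusted p = 0.0537).

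COPII genes, for export from the ER, also had more lower than higher calls under TMM, as did all level classes from 51.8 CPM upward. Of 25 COPII coat and ER exit genes 13 fell (52%) and 2 rose (8%), with a median of -0.34 (0.14 with library totals alone, which called 9 higher and 5 lower). Sec31, an outer coat protein, fell from 360, 345 and 349 CPM to 166, 126 and 138 CPM (log2 -1.29 ± 0.13, adjusted p = 0.000124). KdelR, which returns escaped ER proteins, fell from 519 ± 7.22 to 241 ± 15.8 CPM. Among 38 COPI and Golgi genes 8 fell (21.1%) and 8 rose (21.1%), with a median of -0.02 (0.16 under upper quartile scaling and 0.46 with library totals alone, which called 25 higher and 1 lower). Tango5 fell by 1.56 ± 0.18 there, and the tether gene p115 rose by 0.92 ± 0.17. Of 25 genes for exocytosis 6 fell (24%) and 5 rose (20%), with a median of 0.01 (-0.01 under RLE scaling, and with library totals alone 17 higher and 0 lower). Rab11, the GTPase of recycling vesicles, fell by 0.70 ± 0.13 (call lost with library totals alone, adjusted p = 0.171) and the exocyst gene Sec15 rose by 0.65 ± 0.12.

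Basement membrane genes fell further than those of any other list of 10 or more tested members. Of 15 tested, 12 fell (80%) and 1 rose (6.67%), with a median log2 fold change of -1.93, which remained below 0 under every scaling (-1.44 with library totals alone, which called 1 higher and 12 lower). LanA (FBgn0002526, 3L, 6203831 to 6218022), the laminin alpha chain, fell from 3923, 4296 and 4512 CPM to 554, 501 and 601 CPM (log2 -2.94 ± 0.11, adjusted p = 4.83e-06). Its partner chains moved alike, LanB2 from 1880 ± 63 to 256 ± 7.88 CPM and LanB1 from 2826 ± 151 to 500 ± 90.3 CPM. Both collagen IV genes fell less: vkg from 3978 ± 585 to 1099 ± 131 CPM (log2 -1.86 ± 0.14) and Col4a1 from 4183 ± 495 to 1633 ± 141 CPM (log2 -1.36 ± 0.12). SPARC, which binds collagen IV, fell from 1044, 994 and 1216 CPM to 78.9, 101 and 131 CPM (log2 -3.39 ± 0.20). Nidogen (Ndg) had a log2 fold change of 0.05. The member that rose was Mp, a collagen XV/XVIII homologue, by 1.97. The 16 listed genes held 1.8 ± 0.125% of all counts in control and 0.601 ± 0.0332% with dsRNA.

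Other matrix and surface genes were mixed. PH4alphaEFB, the prolyl hydroxylase that modifies collagen, fell from 1096 ± 71.1 to 251 ± 49.5 CPM (log2 -2.13 ± 0.16). Timp, an inhibitor of matrix metalloproteases, rose from 0.54 ± 0.231 to 6.12 ± 3.61 CPM (log2 3.48 ± 0.54). The 13 matrix processing genes divided into 5 higher (38.5%) and 5 lower (38.5%), with a median of -0.19 (0.29 with library totals alone, which called 6 higher and 5 lower). Of 16 proteoglycan genes 9 fell (56.2%) and 3 rose (18.8%), with a median of -0.46 (0.03 with library totals alone, which called 6 higher and 5 lower). The glypican gene dally fell from 150, 123 and 152 CPM to 30.3, 23 and 28.4 CPM (log2 -2.38 ± 0.15), and sgl, which makes the sugar precursor of heparan sulfate, fell by 2.28 ± 0.11. Of 19 integrin and focal adhesion genes 6 fell (31.6%) and 2 rose (10.5%), with a median of 0.01 (-0.00 under RLE scaling, and with library totals alone 11 higher and 4 lower). The integrin gene Itgbn fell from 24.5 ± 3.03 to 5.01 ± 4.12 CPM (log2 -2.31, and -3.21 without dsRNA library 3), and rhea, which encodes talin, fell by 0.87 ± 0.14. Of 32 adhesion and junction genes 10 rose (31.2%) and 9 fell (28.1%) (19 higher and 4 lower with library totals alone). The 5 of largest change all rose: Fas3, Fas2, rst, Nrg and sdt. Nrg, the neuroglian adhesion protein, went from 58.9, 57.3 and 48.9 CPM to 170, 188 and 241 CPM (log2 1.86 ± 0.16). All of them but Fas3 are X-linked, as are 10 of the 32 tested members of this list and 1587 of all 9058 tested genes.

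Hemocyte markers moved with these secreted and matrix genes. Of 8 tested markers, 7 fell (87.5%) and 1 rose (12.5%), with a median of -1.82 (-1.33 with library totals alone, which called 1 higher and 6 lower). The 10 markers summed to 3758 to 4385 CPM in control and 998 to 1276 CPM with dsRNA. He and NimC1 had means under 1 CPM. eater, a phagocytic receptor, fell from 31.9, 33.1 and 31.1 CPM to 4.13, 2.18 and 1.54 CPM (log2 -3.59 ± 0.32), and srp, the GATA factor of blood cells, from 330 ± 12.9 to 98.5 ± 8.99 CPM. The scavenger receptor Sr-CI rose by 1.60. Several markers, Pxn and Hml among them, also stand in the matrix and protease lists. Fewer cells of a type and less RNA per cell cannot be told apart in such bulk libraries, and the part of this shift in the other lists was not tested.

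Immune surface, inhibitor and lysosomal genes had more lower than higher calls under TMM, while clip-domain and melanization genes were divided. Of 16 serpins and other protease inhibitors, 10 fell (62.5%) and 1 rose (6.25%) (Timp again), with a median of -1.27 under TMM and -0.78 with library totals alone, the latter with 2 higher and 9 lower. Spn42Dc fell from 96.3, 109 and 95.8 CPM to 7.42, 11.4 and 14.9 CPM (log2 -3.17 ± 0.24). Of 15 thioester proteins and scavenger receptors 7 fell (46.7%) and 2 rose (13.3%), with a median of -0.50 (-0.02 with library totals alone, which called 4 higher and 4 lower). Tep2, an opsonin, fell from 1827, 1741 and 1682 CPM to 504, 531 and 515 CPM (log2 -1.76 ± 0.09), while its relative Tep4 rose from 212 ± 8.47 to 572 ± 130 CPM (log2 1.43 ± 0.17). Of 17 clip-domain and melanization genes 7 fell (41.2%) and 6 rose (35.3%), with a median of -0.14 (0.05 under upper quartile scaling and 0.35 with library totals alone, which called 8 higher and 5 lower). grass, a protease of the Toll pathway, fell from 44.5 ± 4.75 to 3.41 ± 0.242 CPM (log2 -3.70 ± 0.15). Those that rose stayed low, with means of at most 3.97 CPM (gd) with dsRNA. Of 29 lysosomal genes 14 fell (48.3%) and 5 rose (17.2%), with a median of -0.48 (0.00 with library totals alone, which called 9 higher and 8 lower). The mannosidase gene LManII fell by 3.27 ± 0.24 and the hexosaminidase gene Hexo2 by 2.48 ± 0.13.

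**Figure D4:**
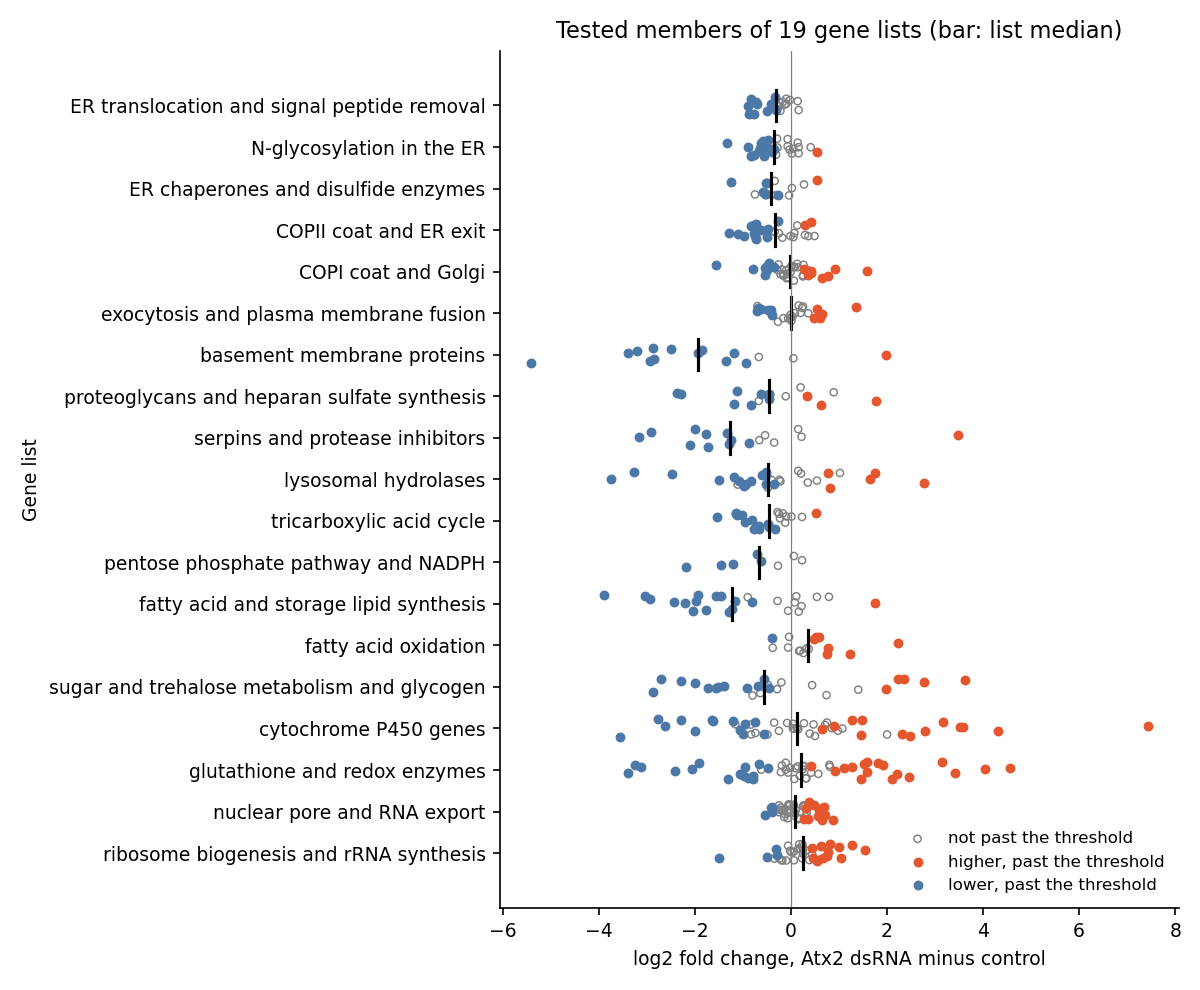
Log2 fold change (x axis, Atx2 dsRNA minus control) of each tested member of 19 gene lists (y axis), filled orange or blue where past the threshold and open where not, with a black bar at the list median. Basement membrane genes have a median of -1.93 and fatty acid synthesis genes of -1.23, while fatty acid oxidation genes have a median of 0.34.

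Most lipid synthesis genes fell, while genes of fatty acid oxidation had more higher than lower calls. Of 25 genes for fatty acid and storage lipid synthesis, 15 fell (60%) and 1 rose (4%), with a median of -1.23 (-0.75 with library totals alone, which called 8 higher and 13 lower). FASN1 (FBgn0283427, 2L, 3056598 to 3068177), fatty acid synthase, fell from 3345, 3401 and 3429 CPM to 695, 690 and 818 CPM (log2 -2.21 ± 0.10, adjusted p = 8.25e-06). ACC, which makes its substrate, fell from 658, 681 and 667 CPM to 132, 112 and 125 CPM (log2 -2.44 ± 0.11). The libraries of both genes varied little within a group. Agpat2, an acyltransferase of phospholipid and fat synthesis, fell from 222 ± 23.8 to 14.9 ± 1.33 CPM (log2 -3.89 ± 0.14), and the desaturase gene Desat1 from 1720 ± 122 to 438 ± 30.6 CPM. SREBP, the transcription factor of lipid synthesis genes, fell from 1639 ± 56.6 to 713 ± 78.4 CPM (log2 -1.20 ± 0.11). In its wider list of 24 SREBP, isoprenoid and sterol genes 8 fell (33.3%) and 3 rose (12.5%), with a median of -0.24 (0.25 with library totals alone, which called 10 higher and 4 lower). Of 16 oxidation genes 7 rose (43.8%) and 1 fell (6.25%), with a median of 0.34 (with library totals alone 14 higher and 0 lower). Mtpalpha, of the mitochondrial trifunctional protein, rose from 226, 329 and 281 CPM to 414, 417 and 416 CPM (log2 0.58 ± 0.14, adjusted p = 0.0104). Mfe2, its peroxisomal counterpart on the X, rose by 0.76 ± 0.11.

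Central carbon metabolism had more lower than higher calls under TMM, as did all level classes from 51.8 CPM upward. Of 22 genes of the tricarboxylic acid cycle 13 fell (59.1%) and 1 rose (4.55%), with a median of -0.46 (0.03 with library totals alone, which called 4 higher and 8 lower). Idh3a, a subunit of isocitrate dehydrogenase, fell from 204, 210 and 214 CPM to 72.7, 73.4 and 68.1 CPM (log2 -1.55 ± 0.10). kdn, citrate synthase, fell from 319 to 146 CPM on average and SdhA, of succinate dehydrogenase, by 1.15 ± 0.12. The gene that rose was Pdp, the phosphatase that activates pyruvate dehydrogenase, by 0.52. Of 8 pentose phosphate and NADPH genes 5 fell (62.5%) and 0 rose (0%), with a median of -0.67 (-0.18 with library totals alone, which called 2 higher and 3 lower). Men, malic enzyme, fell from 1375, 739 and 1099 CPM to 204, 222 and 282 CPM (log2 -2.18 ± 0.24), whereas Zw, glucose-6-phosphate dehydrogenase, had a log2 fold change of 0.23. Of 25 sugar, trehalose and glycogen genes 12 fell (48%) and 5 rose (20%), with a median of -0.57 (-0.08 with library totals alone, which called 7 higher and 8 lower). Glys, glycogen synthase, fell from 455, 394 and 465 CPM to 76.4, 51 and 51.5 CPM (log2 -2.88 ± 0.19), and Glyp, glycogen phosphorylase, also fell. Glyp differed within groups, at 569, 269 and 404 CPM and at 205, 56.4 and 48.5 CPM, with library 1 highest in each. Its log2 fold change was -2.99 without dsRNA library 1, and its call was lost without dsRNA library 2 (adjusted p = 0.0535).

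Nucleotide and amino acid enzymes were mixed. Of 24 purine and pyrimidine genes 9 fell (37.5%) and 3 rose (12.5%), with a median of -0.22 (0.27 with library totals alone, which called 10 higher and 6 lower). Prps, which makes the ribose phosphate donor of nucleotides, fell from 181 ± 5.11 to 40.3 ± 8.83 CPM (log2 -2.17 ± 0.17), and RnrS, of ribonucleotide reductase, fell by 1.68 ± 0.24. Of 15 serine, glycine and one-carbon genes 5 fell (33.3%) and 4 rose (26.7%), with a median of -0.07 (0.12 under upper quartile scaling and 0.42 with library totals alone, which called 6 higher and 4 lower). Sam-S, which makes the methyl donor S-adenosylmethionine, fell from 1021, 684 and 863 CPM to 467, 273 and 216 CPM, while pug, a folate enzyme, rose from 8.82 ± 1.1 to 25.9 ± 4.31 CPM. Of 25 other amino acid enzymes 9 fell (36%) and 5 rose (20%), with a median of -0.38 (0.10 with library totals alone, which called 10 higher and 7 lower). The glutamine synthetases divided: Gs1 fell by 1.41 and Gs2, on the X, rose by 2.01 ± 0.20. ple and Ddc, which make dopamine, rose to no more than 1.73 and 1.25 CPM.

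Transporters changed in both directions. JhI-21 and mnd, which import large neutral amino acids, fell from 740 ± 75.3 to 137 ± 74.9 CPM and from 218 ± 15.5 to 48 ± 12.4 CPM. CG7888 fell by 3.68 ± 0.23, while the glutamate transporter Eaat1 rose by 2.47 ± 0.63 (3.37 without control library 1 and 1.76 without dsRNA library 1). Of 11 amino acid transporters 4 rose (36.4%) and 4 fell (36.4%) (7 higher and 3 lower with library totals alone). Tsf1 (X, 18387084 to 18390344), the circulating transferrin, rose from 70.7, 34.7 and 28.7 CPM to 365, 345 and 316 CPM (log2 2.94 ± 0.33, adjusted p = 0.000228), within a metal list of 29 genes of which 8 rose (27.6%) and 5 fell (17.2%) (16 higher and 3 lower with library totals alone). Of 29 ion pump and channel genes 14 fell (48.3%) and 5 rose (17.2%), with a median of -0.25 (0.24 with library totals alone, which called 10 higher and 8 lower). Best1, a chloride channel that responds to swelling, fell from 197 ± 22.7 to 40.4 ± 2.93 CPM (log2 -2.29 ± 0.13). Prip, an aquaporin, rose from 1.24, 1.42 and 1.33 CPM to 5.3, 12.2 and 24.2 CPM (log2 3.38, and 2.70 without dsRNA library 3).

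The shares of detoxification genes called in each direction lay near those of all genes, 28.5% higher and 26.6% lower. Of 49 cytochrome P450 genes tested, 13 rose (26.5%) and 13 fell (26.5%), with a median of 0.12 (with library totals alone 20 higher and 8 lower). Cyp4ac2 fell from 47.9 ± 5.29 to 4.06 ± 1.26 CPM and Cyp12a5 from 109 ± 8.35 to 17.8 ± 5.53 CPM. Of 52 glutathione and redox genes 17 rose (32.7%) and 15 fell (28.8%), with a median of 0.21 (with library totals alone 30 higher and 9 lower). Sesn (2R, 23713900 to 23734846), a sestrin that restrains TOR under stress, fell from 227, 171 and 209 CPM to 13.2, 16.4 and 28.6 CPM (log2 -3.39 ± 0.29). GstD5 (3R, 12375733 to 12376572), a glutathione S-transferase, rose from 58.2, 42.6 and 42.1 CPM to 235, 772 and 1333 CPM (log2 4.03 ± 0.57, adjusted p = 0.000739, and 3.39 without dsRNA library 3). It had the lowest value of its group in dsRNA library 1, as did Arc1, AOX1 and CG16713.

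Some genes that changed the same way lay side by side. Runs of at least 4 neighbouring tested genes, all called and at least 2-fold changed in the same direction, numbered 40 and held 196 of the 2626 genes changed at least 2-fold. Of these, 20 runs with 103 genes were higher, 8 of them on the X, and 20 runs with 93 genes were lower, 1 of them on the X. Of the 1587 X genes tested 21.9% were at least 2-fold higher and 8.88% lower. The 7304 genes of the autosome arms had 14.1% and 14.6%. Overlapping genes can share reads, related copies can share sequence, and runs were not set against any chance expectation.

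Some runs were families of detoxification, immune and growth factor genes. GstD1 to GstD6 lie within 10.1 kb of 3R (12367817 to 12377907), where the 6 GstD genes and lncRNA:CR46015 rose. GstD1, the most abundant in control, stood at 234, 293 and 260 CPM in control and at 264, 689 and 959 CPM with dsRNA, so its groups overlapped (log2 1.28 ± 0.40, adjusted p = 0.0251). GstD2 rose from 3.96 ± 1.44 to 35.1 ± 13.7 CPM (log2 3.14 ± 0.38). On 2L (3662745 to 3699092) 8 neighbours from Drgx to CG10031 rose from group means of at most 1.41 CPM. Among them CG16713 reached 21.9, 65.2 and 98.1 CPM, and IM33, an immune-induced molecule, 15, 30.3 and 41.4 CPM. Spn42Da to Spn42Dd on 2R fell together, as did Idgf1, Idgf2 and Idgf3 on 2L, which encode chitinase-like growth factors. Idgf1 fell from 514, 348 and 440 CPM to 51.8, 63 and 90.5 CPM (log2 -2.67 ± 0.24). Nepl19, Nepl20 and Nepl21, which encode neprilysin-like peptidases, fell on 3R, Nepl19 from 286 to 24.9 CPM on average.

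Other runs joined unrelated genes. The longest by gene count spanned 145 kb of the X (4132887 to 4277961), where 11 neighbours from Fas2 to CG15578 rose. Fas2, the homophilic adhesion protein fasciclin 2, went from 8.86, 4.85 and 4.5 CPM to 39.3, 32.4 and 39 CPM (log2 2.60 ± 0.27, adjusted p = 0.000155). The other 10 had at most 1.11 CPM on average in control and at most 8.51 CPM (Muc4B) with dsRNA. A second run of 8 X genes held Grip, which rose from 0.841 to 26.2 CPM on average (log2 4.93 ± 0.56). In a run of 7 genes on 2R that fell lay Jabba, which anchors histones to lipid droplets (log2 -3.04 ± 0.48).

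**Figure D5:**
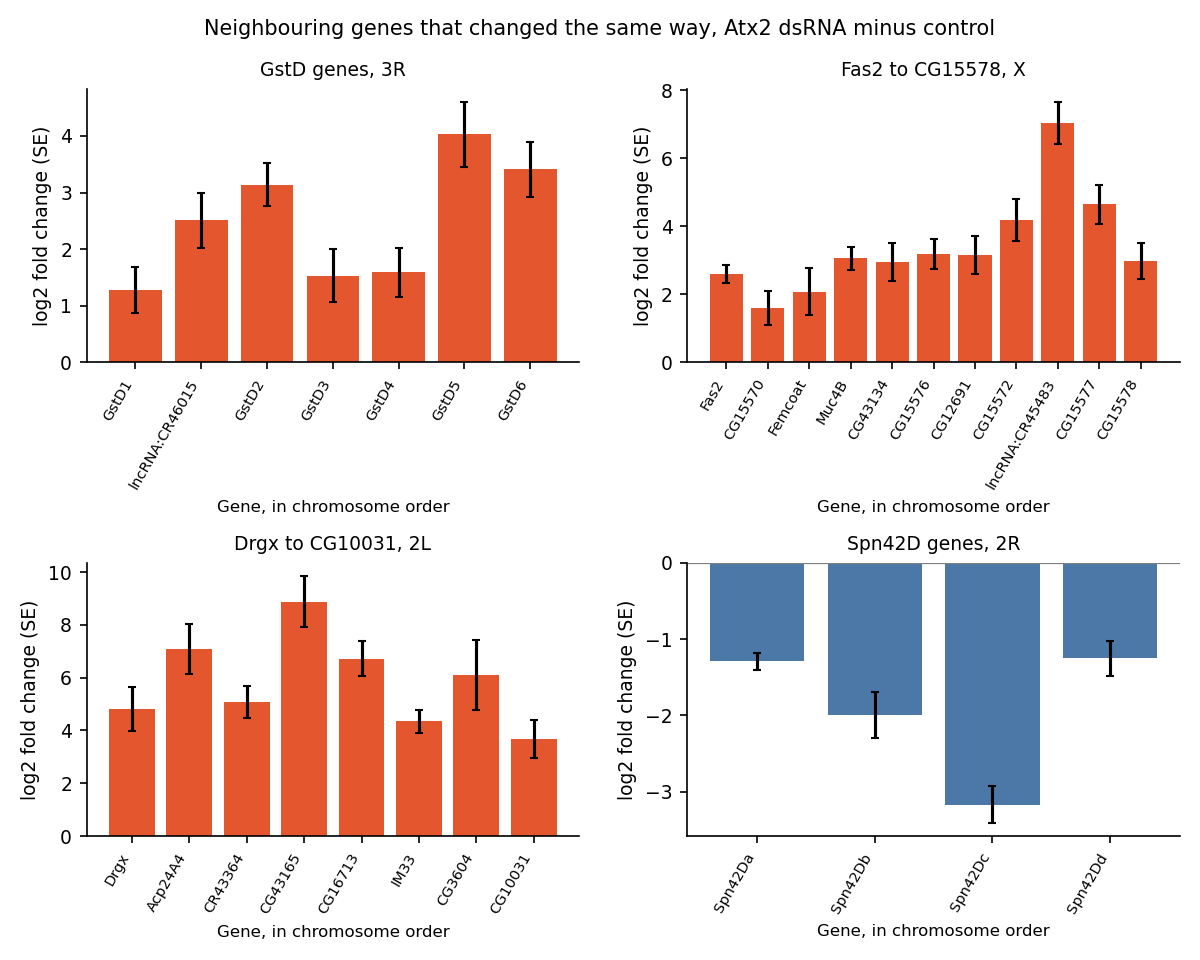
Log2 fold change with SE (y axis, Atx2 dsRNA minus control) of the genes in 4 runs of neighbours (x axis, in chromosome order), orange where higher and blue where lower. The 7 genes of the GstD run range from 1.28 to 4.03, while the fitted values of CG43165 and Acp24A4, which had 0 counts in control, depend on the prior count and bound nothing.

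Growth factor and receptor genes changed in both directions, with the largest changes downward. Of 32 genes of the EGF, FGF and PVR pathways 12 fell (37.5%) and 8 rose (25%), with a median of 0.14 (with library totals alone 17 higher and 10 lower). bnl (3R, 19794073 to 19836817), an FGF ligand, fell from 51.2, 34.9 and 41.5 CPM to 4.46, 1.92 and 2.17 CPM (log2 -3.89 ± 0.33). aos, the secreted EGF receptor antagonist that the pathway itself induces, fell from 286, 285 and 406 CPM to 25.7, 24.2 and 23.3 CPM (log2 -3.74 ± 0.17), and sty, another induced antagonist, fell by 1.92. Pvf1, a ligand of the PDGF and VEGF type, fell from 102 ± 10.4 to 12.5 ± 1.8 CPM, and its receptor gene Pvr fell by 1.89. Those that rose included the FGF ligand ths, by 2.77, and the kinase gene Dsor1, by 1.74. Of 34 Wnt, Hedgehog and BMP genes 12 fell (35.3%) and 5 rose (14.7%), with a median of -0.10 (0.08 under upper quartile scaling and 0.39 with library totals alone, which called 16 higher and 4 lower). ptc, receptor and target of Hedgehog, fell by 2.69 ± 0.33 and Dad, an inhibitory Smad and BMP target, by 2.57 ± 0.26. Of 16 JAK/STAT genes 3 rose (18.8%) and 3 fell (18.8%), with a median of -0.01 (0.17 under upper quartile scaling and 0.47 with library totals alone, which called 9 higher and 1 lower). The cytokine gene upd3 rose from 5.02 ± 0.946 to 15.5 ± 0.24 CPM, while Socs36E, a target and inhibitor, fell by 1.11 ± 0.26 (call lost with library totals alone, adjusted p = 0.0524).

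Endocytic and ubiquitin ligase genes were called in both directions, beside 28.5% higher and 26.6% lower among all genes. Endocytic genes numbered 51, of which 16 fell (31.4%) and 8 rose (15.7%), with a median of -0.23 (0.26 with library totals alone, which called 23 higher and 5 lower). Past1, an EHD family membrane remodeller, fell from 791 ± 52.9 to 329 ± 19.8 CPM, and Amph, amphiphysin, rose from 13 ± 1.78 to 34.5 ± 7.9 CPM. Of 58 ubiquitin ligase genes 12 fell (20.7%) and 11 rose (19%), with a median of 0.14 (with library totals alone 42 higher and 5 lower); brat fell by 1.78 ± 0.21 and fzy, the activator of the anaphase-promoting complex, by 1.36 ± 0.17.

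Among 62 transcription factors of stress, nutrients and lineage, 28 fell (45.2%) and 8 rose (12.9%), with a median of -0.28 (0.21 with library totals alone, which called 21 higher and 17 lower). Hnf4, a receptor of lipid metabolism, fell from 254, 191 and 239 CPM to 62.1, 40.6 and 40.9 CPM (log2 -2.25 ± 0.20). dl, the NF-kappaB factor Dorsal, fell from 190, 190 and 190 CPM to 48.3, 47.6 and 45.6 CPM (log2 -2.01 ± 0.09, adjusted p = 8.25e-06). sima, the hypoxia-inducible factor, fell from 235 ± 40.8 to 57.3 ± 25.2 CPM. The largest rise was that of nub, a POU factor, by 2.30, from 0.0841 to 0.442 CPM. Of 13 lamellocyte and crystal cell genes 5 fell (38.5%) and 3 rose (23.1%), with a median of 0.12 (with library totals alone 6 higher and 4 lower): the Notch ligand gene Ser fell by 3.18 ± 0.36 and N, the receptor on the X, rose by 1.27 ± 0.22.

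Lists of nuclear and RNA genes had medians near 0. Of 67 chromatin genes 17 rose (25.4%) and 16 fell (23.9%), with a median of -0.03 (0.15 under upper quartile scaling and 0.45 with library totals alone, which called 35 higher and 10 lower). Trl, the GAGA factor, fell from 41.9 ± 2.67 to 9.72 ± 1.71 CPM (log2 -2.11 ± 0.15). Of 59 splicing genes 15 fell (25.4%) and 13 rose (22%), with a median of 0.02 (-0.00 under RLE scaling, and with library totals alone 32 higher and 1 lower). mbl, the muscleblind regulator, fell from 75.1, 73.3 and 72.3 CPM to 17.6, 12.3 and 11.4 CPM (log2 -2.41 ± 0.17). No other member of the list as drawn up had a called change above 1.20 in size, the value of kz, which rose. Of 44 nuclear pore and export genes 12 rose (27.3%) and 3 fell (6.82%), with a median of 0.07 (with library totals alone 33 higher and 0 lower). Nup98-96 rose from 302 ± 12.4 to 491 ± 27.4 CPM (log2 0.70 ± 0.10).

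Among genes that build ribosomes, the share called higher was near the 28.5% of all genes and the share called lower was under their 26.6%. Of 39 ribosome biogenesis genes 13 rose (33.3%) and 4 fell (10.3%), with a median of 0.24 (with library totals alone 28 higher and 1 lower). eIF6, which keeps new large subunits from joining early, rose from 75.9, 92.2 and 82.4 CPM to 192, 266 and 270 CPM (log2 1.54 ± 0.16, adjusted p = 0.000156). RIOK1, a kinase of small-subunit maturation, rose from 20.3 ± 2.46 to 48.9 ± 1.83 CPM. Non1, a nucleolar GTPase, went the other way, from 2479 ± 424 to 885 ± 198 CPM. The summed level of the list was lower with dsRNA, at 6430 to 6868 CPM in control against 5416 to 5512 CPM. The loss of Non1 alone was larger than this fall, so the other members together did not fall. Of 27 decay and exosome genes 8 rose (29.6%) and 4 fell (14.8%), with a median of 0.19 (with library totals alone 19 higher and 1 lower). HBS1, which frees stalled ribosomes, rose from 64.8, 58.5 and 61.7 CPM to 182, 192 and 217 CPM (log2 1.68 ± 0.11). The 4 that fell, btz, Smg5, tsu and mago, include the exon junction genes btz, tsu and mago. CG7483, the eIF4AIII gene of the exon junction complex, had a log2 fold change of 0.26 ± 0.12 without a call (adjusted p = 0.101).

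A list of 22 RNA interference genes held members of the siRNA, miRNA and piRNA pathways. Of these 7 rose (31.8%) and 4 fell (18.2%), with a median of 0.10 (with library totals alone 14 higher and 2 lower). AGO2, the slicer of the short interfering RNA pathway, fell from 618, 663 and 646 CPM to 302, 270 and 297 CPM (log2 -1.15 ± 0.10, adjusted p = 7.66e-05), and vig, found in the same effector complex, fell by 1.03 ± 0.10. Dcr-2, which cuts long dsRNA, had a log2 fold change of 0.10 and its partner r2d2 of -0.05. aub, a Piwi protein of the germline, rose from 1.57, 1.33 and 1.24 CPM to 16.1, 12.8 and 12.7 CPM (log2 3.33 ± 0.22). spn-E, a helicase of the same piRNA pathway, rose by 1.14 ± 0.20. The Piwi family genes AGO3 and piwi had negative log2 fold changes without a call. These were -0.70 ± 0.29 (adjusted p = 0.0712) and -0.49 ± 0.26 (adjusted p = 0.144).

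A fixed rule of level found genes switched on or off: at most 0.1 CPM in every library of one group and at least 1 CPM in every library of the other. With dsRNA 19 genes were switched on, 16 of them protein coding and 6 on the X, and 3 were switched off. Of all 9058 genes tested, 8482 are protein coding and 1587 lie on the X. Of the 19, 9 had at least 1 CPM in control larval brain. The share of all genes at that brain level is not given here. CG43165, CG17290 and Sgp had 0 counts in all control libraries, and against 3 counts over that group their CPM with dsRNA were at least 59.1-fold, 49.5-fold and 36.7-fold higher. tw, a protein O-mannosyltransferase gene on the X, had 0, 1 and 0 counts in control and 60, 115 and 114 with dsRNA, a ratio of 309 (95% counting interval 55 to 12232). In control brain it stood at 78.1 CPM. Pp1-13C, a protein phosphatase gene, had 0, 1 and 0 counts against 113, 70 and 48, a ratio of 247 (43.8 to 9785). CG13243 and Tektin-A, which encodes a protein of ciliary microtubules, are neighbours on 2L and had 3 against 485 and 2 against 142 counts. All 19 stayed at group means of 1.62 to 7.48 CPM.

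The genes switched off were lncRNA:CR42868, CG7251 and CG34437, with 203, 111 and 107 counts in control and 4, 2 and 1 with dsRNA. The count of genes switched on was 42 without control library 1 and 32 without dsRNA library 1, and that of genes switched off was 6 without dsRNA library 1.

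Markers of other cell types were low for some types and present for others. All 5 fat body markers had means under 1 CPM, as did Mhc, Mlc1, up and wupA of the 6 muscle markers and repo and wrapper of the 4 glia markers. Syn, Syt1, fne and nSyb of the 7 neuron markers were also under 1 CPM. The neuron markers summed to 85.2 to 115 CPM in control and 49 to 75.6 CPM with dsRNA. That difference lay mostly in brp, which fell from 65.4 ± 15.4 to 14.2 ± 1.5 CPM, while Appl rose from 3.62 ± 0.568 to 19.7 ± 4.65 CPM, nSyb rose from 0.0724 to 0.852 CPM, and elav stood at 30.3 and 23.4 CPM. Glia markers summed to 63.4 to 67.3 CPM and 71.9 to 78.5 CPM, where moody fell from 56.8 to 43.8 CPM and Gs2 rose from 7.96 to 32.1 CPM. Both of these genes are X-linked. Lamellocyte markers summed to 42.1 to 48.8 CPM and 42 to 99.2 CPM, most of it PPO3 at 38.7 and 48.8 CPM. Ovarian soma markers summed to 50.9 to 70 CPM and 61.6 to 102 CPM, most of it fs(1)Yb at 52.7 and 75.4 CPM. Crystal cell markers summed to 3.49 to 7.34 CPM and 5.67 to 8.79 CPM. The germline markers summed to 11.2 to 20 CPM and 30.4 to 39 CPM, with aub and bam higher, osk lower and vas under 1 CPM. Epithelial markers summed to 205 to 216 CPM and 175 to 209 CPM, most of it Nrx-IV at 155 and 137 CPM. The part of these markers in the other values was not tested.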

How the data were processed

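Per the labels' protocols, poly(A) RNA of 6 S2 libraries in 2 groups of 3 was made into TruSeq mRNA libraries. The deposited files hold gene counts that the authors made. The submitters' processing notes name cutadapt 1.13, STAR, HTSeq 0.6.1p1, DESeq2 and BDGP6. Strand setting: not given in the sources used here. Reads of overlapping genes may therefore be shared. Of 17737 gene identifiers, 17599 matched the BDGP6.54 annotation, and the 138 others held 1.14 to 1.39% of S2 counts.

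Genes passing filterByExpr (minimum count 10) were tested with edgeR 4.0.16 in R 4.3.3 (TMM scaling, quasi-likelihood test, Benjamini-Hochberg adjustment over all genes, threshold 0.05). SE is the log2 coefficient divided by the square root of F. CPM use TMM-scaled totals. Summaries used python 3.11.15, pandas 2.3.3 and scipy 1.17.1, and figures matplotlib 3.10.9. Library medians on chromosome arms used log2(CPM + 0.5). Intervals and floors (3 counts over the group) cover counting error only. The fit was tested on simulated data.

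The 43 gene lists and the members were chosen with earlier results of these data known, and 1429 entries matched while 94 did not. 1 of the lists is not reported here. Named genes are Atx2, the 12 largest called changes each way, up to 4 called members per list of at least 5 CPM, the 10 largest CPM gains and losses, and genes switched on or off. Genes named beyond this rule were chosen after their values were seen. Alternatives were other scalings and filters, DESeq2 1.42.0, a replicate block, a fit of all 12 libraries and leaving out each library. No replicate pair agreed within sampling noise (chi-square per degree of freedom 22.1 to 111).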

Additional observations from a re-analysis of the deposited data

How the results depend on the processing

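With library totals alone 4906 genes were called higher and 1324 lower, 2497 and 697 of them at least 2-fold, and 1 gene was switched off. With at least 5 CPM required in 3 libraries, 6879 genes were tested and 587 were at least 2-fold higher, since fewer low genes entered. List medians changed sign for 1 list under RLE, 6 under upper quartile scaling and 19 with library totals alone. Leaving out 1 library gave 3877 to 5466 called genes, 21 to 42 genes switched on and 3 to 6 switched off. Without replicate 1 of both groups, added after seeing the data, these were 5616, 57 and 6, and the eEF1alpha1 share differed by -1.16 percentage points instead of -1.12; the cause was not tested. A rule of at most 0.2 and at least 2 CPM found 1 gene switched off. DESeq2 called 5089 genes. Libraries thinned to equal totals, also added after seeing the data, gave 4708. The replicate block called 5478 genes, 4936 of them in common with the fit without it. Deviations of equal-numbered libraries correlated at 0.428, 0.355 and 0.0196. Control library 2 with dsRNA library 1 gave -0.422, and control library 1 with dsRNA library 2 gave -0.376. Control library 3 correlated little with any dsRNA library (-0.0599, 0.0798 and 0.0196), and dsRNA library 3 correlated best with control library 2 (0.285). Libraries 1 and 2 thus matched by number. The deviations of a group sum to 0, so these correlations are not independent of each other. Control library 3 lay at root mean square distances of 0.306 and 0.272 from libraries 1 and 2, which lay 0.443 apart. Its deviations were therefore small, and its low correlations cannot show whether number 3 matched. The main fit did not take the numbers as pairs, and the labels do not explain them. Of 216 called named genes, 195 kept call and direction in every alternative run and 0 reversed. Atx2 passed the threshold with DESeq2 (adjusted p = 0.014), with the block (0.0142), without a filter (0.0211), in the fit of all 12 libraries (0.0281), without any dsRNA library in turn (0.0139 to 0.046, at log2 -1.05, -0.55 and -1.18 against -0.89) and without replicate 1 of both groups (0.0474).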

Other observations

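Genes with more exons were more often lower with dsRNA. Of 1117 tested genes with 1 exon block 32.4% were called higher and 18.2% lower, while of 1413 genes with over 8 blocks 24.8% were called higher and 36.9% lower. Over 5 equal classes of exon length the share called lower climbed from 18.1% in the shortest to 33.9% in the longest, while the share called higher was 27.9%, 29.6%, 30.7%, 28.1% and 26.3%. Level moved with these features, with a median of 10.5 CPM for genes of 1 block and 73.6 CPM for those of over 8, and its part in these shares was not tested.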
